A study of Rattus norvegicus with 6 samples.

Results

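The genes described here encode the MHC class II chains and the proteins that work with them. They are RT1-Da, RT1-Ba, RT1-Bb and RT1-Db1, Cd74 (the invariant chain), Ciita (the class II transactivator) and B2m (beta-2-microglobulin). Members were chosen by gene symbol: every probe set whose platform annotation gives 1 of these 7 symbols was taken. This gave 14 of the 31042 probe sets that are not array controls, and 0 further probe sets carried a member symbol among several. A probe set is a group of short probes on the array that together read out 1 transcript. Of the 14, 11 reached the signal needed for testing (a linear signal of about 25.0) and 3 did not, and each of the 7 genes kept at least 1 tested probe set.

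Transcript levels were measured in kidney RNA of male rats with Affymetrix Rat 230 2.0 arrays. The S group was the Dahl salt-sensitive strain. The congenic group has the Dahl S background and carries a segment of chromosome 9 from the R strain. Each group held 6 rats of 53 days, all born on the same day, weaned at 30 days and then fed 2% salt. Cages held 1 rat of each strain. The RNA of 2 rats was pooled into 1 sample, so that n = 3 pools per group, and a segment that holds several genes differs between the groups rather than 1 gene. The arrays carried the pattern of kidney: the thick ascending limb gene Umod had a signal of 6699 ± 107 in S and 6825 ± 215 in congenic pools (mean ± SD, n = 3 each), and 8 of 8 measured kidney markers were bright enough to test. Of these, the water channel gene Aqp2 had a log2 fold change of 0.23 (unadjusted p = 0.00732, limma adjusted p = 0.701). Its groups did not overlap, which held for 1 of the 8 and for 12.7% of all tested genes. The potassium channel gene Kcnj1 had 0.26 and the cotransporter gene Slc12a1 0.13. Other markers were lower in congenic pools: Nphs1 (-0.27), Lrp2 (-0.086), Slc12a3 (-0.077) and Slc34a1 (-0.043). The 8 markers thus split into 4 above and 4 below 0, and their median was -0.0084. Signals are MAS5 values on a linear scale, and the number of arrays limits their precision.

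MHC class II molecules present peptides from taken-up proteins to CD4 T cells. Each is a pair of an alpha and a beta chain. RT1-Da and RT1-Db1 encode the chains of the RT1.D molecule, and RT1-Ba and RT1-Bb those of RT1.B. Cd74 holds the new pair in the endoplasmic reticulum and guides it to the endosome. Ciita is the coactivator that switches these genes on, constitutively in B cells and dendritic cells and, under interferon gamma, in macrophages and many epithelia, the renal proximal tubule among them. B2m is the light chain of MHC class I molecules and is made by nearly all nucleated cells. Annotation places the RT1 genes on chromosome 20, Cd74 on 18, B2m on 3 and Ciita on 10, so that none lies on the chromosome that carries the congenic segment. The comparison therefore asks whether antigen presentation genes outside the segment differed between kidneys of the strains.

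The regulatory sequence that Ciita acts through is shown because it is what most of these genes share beyond their function. RefSeq promoters of the rat assembly GRCr8, which run from 250 bases before to 50 after a gene's start, were available for 6 of the 7 genes. They were searched on both strands for an X box core spelled GNNACNGNT and a Y box spelled GATTGG. The X box binds the RFX complex and the Y box binds NF-Y. The X box spelling was loosened after these promoters were read. Of all 33469 promoters, 35.6% held the first and 14.8% the second. An X box core followed on the same strand by a Y box 10 to 30 bases further on was found in 78, or 0.233%. RT1-Da, RT1-Bb, RT1-Db1 and B2m were among the 78. In the windows that follow, 5′ to 3′ on the coding strand, capitals mark the Y box and, where the pair was found, its X box core.
RT1-Da (chr20:4515320-4515379, plus strand): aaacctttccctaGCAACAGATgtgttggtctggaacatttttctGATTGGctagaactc
RT1-Bb (chr20:4604166-4604225, minus strand): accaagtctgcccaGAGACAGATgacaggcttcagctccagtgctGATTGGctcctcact
RT1-Db1 (chr20:4560229-4560288, minus strand): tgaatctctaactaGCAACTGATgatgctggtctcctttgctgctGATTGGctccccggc
B2m (chr3:129549220-129549279, plus strand): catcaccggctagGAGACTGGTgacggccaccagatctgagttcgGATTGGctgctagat
RT1-Ba (chr20:4576968-4577027, plus strand): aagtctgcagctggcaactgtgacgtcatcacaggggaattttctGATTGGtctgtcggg

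The 4 pairs are spaced alike, with 22 bases between the boxes in RT1-Bb and RT1-Db1 and 23 in RT1-Da and B2m. The Y boxes lie 44 bases before the start site in RT1-Da, 56 in RT1-Bb, 75 in RT1-Db1 and 59 in B2m. RT1-Ba has the Y box, 38 bases before its start. In front of it, on the same strand, the bases gcaactgtg differ from the X box spelling only in their last letter. A match to that spelling overlaps these bases on the opposite strand. RT1-Ba was therefore not counted as a pair. The promoter of Cd74 holds neither spelling. An X2 box core spelled TGACG was also searched and was found in RT1-Ba and B2m, and in 21.2% of all promoters. B2m alone of the 6 promoters also holds a match to an interferon-stimulated response element spelled GAAANNGAA, which 9.71% of all promoters hold. A gamma-activated site spelled TTCNNNGAA was in none of the 6 and in 8.87% of all. Of the 78 promoters with the pair, which belong to 73 distinct gene symbols, 6 are of genes with an RT1 symbol: the 3 above, RT1-Db2, RT1-DMa and RT1-DOb, each a class II gene. They lie in the MHC region of chromosome 20, which holds 7.69% of the promoters with the pair and 0.574% of all promoters. The X box spelling was loosened after the member promoters were read, and 3 of these 6 are members. The difference between the shares is therefore partly set by that choice. A match describes letters and was not tested for binding.

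On their brightest probe sets, the class II alpha and beta chains had nearly the same signal in both strains. RT1-Da (probe set 1370883_at) measured 2156, 1942 and 2057 in the S pools and 2164, 1958 and 2226 in the congenic pools. Replicate 2 was the lowest pool in both groups, and the groups overlapped. The log2 fold change, congenic over S, was 0.043 (SE 0.063, 95% confidence interval -0.097 to 0.18, limma adjusted p = 0.911).

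RT1-Ba, the alpha chain of the other molecule, measured 874, 822 and 836 in S and 900, 824 and 860 in congenic pools on its brightest probe set (1370822_at). The lowest and the highest of the 6 arrays lay within 1.09-fold of each other, and the log2 fold change was 0.029 (interval -0.10 to 0.16, limma adjusted p = 0.941). Its partner RT1-Bb (1371033_at) measured 1263, 1164 and 1203 in S and 1320, 1078 and 1190 in congenic pools. The congenic pools held both the highest and the lowest value, and the log2 fold change was -0.021 (interval -0.19 to 0.14, limma adjusted p = 0.969).

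RT1-Db1, the beta chain that pairs with RT1-Da, was read by 2 bright probe sets. The brighter (1370383_s_at) measured 682, 698 and 691 in S and 731, 639 and 693 in congenic pools, a log2 fold change of -0.0081 (interval -0.15 to 0.13). The suffix _s_at marks probes shared with other transcripts. The second (1370382_at) measured 541, 456 and 429 in S and 480, 396 and 401 in congenic pools, a log2 fold change of -0.15 (SE 0.10, interval -0.38 to 0.068, limma adjusted p = 0.80). S replicate 1 held its highest value, and without that array the log2 fold change was -0.060. Without congenic replicate 1 it was -0.24 (unadjusted p = 0.0355, limma adjusted p = 0.754), and without S replicate 3 it was -0.22. With the replicate number as a block it stayed at -0.15 (unadjusted p = 0.0498, limma adjusted p = 0.707).

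Cd74, the invariant chain, measured 2735, 2698 and 2507 in S and 2912, 2519 and 2638 in congenic pools (1367679_at). Congenic replicate 1 lay above every S pool, the other congenic pools lay within the S range, and the log2 fold change was 0.022 (SE 0.063, interval -0.12 to 0.16, limma adjusted p = 0.961). Over the brightest probe sets of RT1-Da, RT1-Ba, RT1-Bb, RT1-Db1 and Cd74, the congenic over S fold lay between 0.986 and 1.03. The widest bounds of their 95% intervals were 0.879 and 1.14. The second bright RT1-Db1 probe set (1370382_at), not among these, had a fold of 0.899 with bounds of 0.771 and 1.05. These folds are on the log2(signal + 16) scale used for the test.

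**Figure D1:**
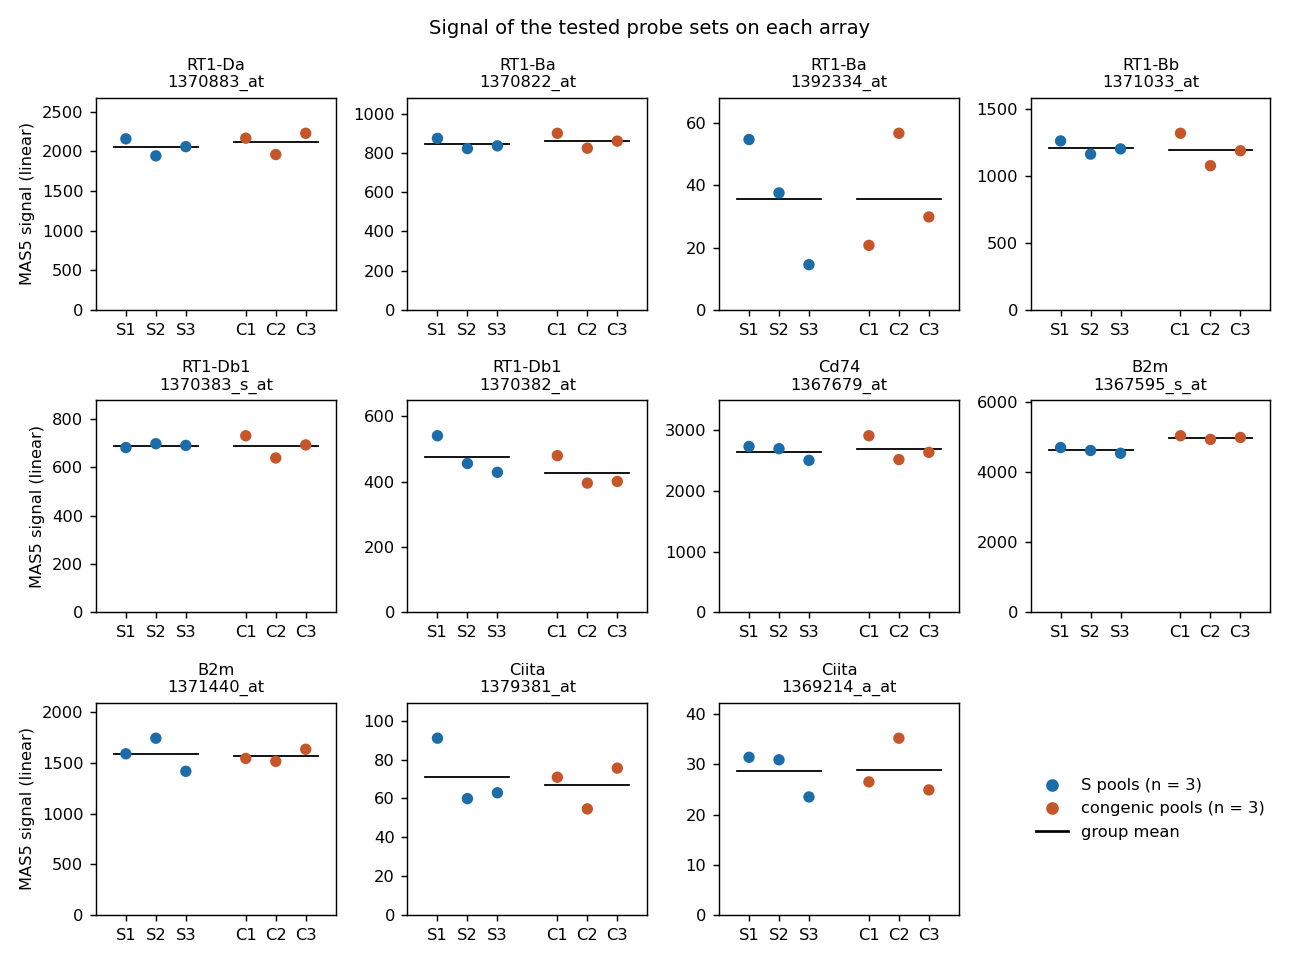
MAS5 signal (linear, y axis from 0) of the 11 tested probe sets on each of the 3 S arrays (S1 to S3, blue) and 3 congenic arrays (C1 to C3, orange), with black lines at the group means. The class II chains and Cd74 overlap between the groups, whereas B2m probe set 1367595_s_at lies at 4540 to 4702 in S and 4935 to 5039 in congenic pools.

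Ciita was measured at much dimmer signals. Its brighter probe set (1379381_at) measured 91.0, 59.9 and 62.9 in S and 70.9, 54.6 and 75.6 in congenic pools, a log2 fold change of -0.063 (interval -0.41 to 0.28). The other (1369214_a_at) measured 31.4, 30.9 and 23.5 in S and 26.5, 35.2 and 24.9 in congenic pools, close to the signal needed for testing. Its log2 fold change was 0.0056 (interval -0.32 to 0.33). The groups overlapped in both, and over both probe sets the intervals of the fold ran from 0.754 to 1.26.

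The remaining probe sets of the class II chains were dim. RT1-Ba probe set 1392334_at was tested and measured 54.6, 37.5 and 14.5 in S and 20.7, 56.6 and 29.8 in congenic pools, so that the highest array was 3.9 times the lowest and the interval ran from -0.66 to 0.71. RT1-Ba 1381593_x_at lay at 13.8 to 33.3 over the 6 arrays and RT1-Bb 1371065_at at 1.52 to 12.1, both too dim to be tested. RT1-Ba 1377334_at, also too dim, measured 20.4, 11 and 22.1 in S and 2.8, 14.4 and 4.6 in congenic pools. In the fit without a filter its log2 fold change was -0.56 (unadjusted p = 0.0309, limma adjusted p = 0.842). Its groups overlapped, and the bright RT1-Ba probe set was at 0.029.

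B2m was the one member whose groups did not overlap. Its brighter probe set (1367595_s_at) measured 4702, 4618 and 4540 in S and 5039, 4935 and 4990 in congenic pools. The suffix _s_at, as for RT1-Db1 above, marks probes shared with other transcripts. Every congenic pool lay above every S pool, with means of 4620.0 ± 81.3 and 4988 ± 52.1 (SD, n = 3 each), a difference of 7.96%. The log2 fold change was 0.11 (SE 0.043, interval 0.016 to 0.20, unadjusted p = 0.0262). It did not pass limma's adjusted threshold (adjusted p = 0.746), and 646 of the 18625 tested probe sets had a p as small or smaller. With each array left out in turn it lay between 0.098 and 0.12, and with quantile normalization it was 0.072. The unadjusted p was 0.05 or more under 8 of the 18 alternatives and ranged from 0.00291 to 0.234. The second B2m probe set (1371440_at) measured 1590.3, 1744 and 1418 in S and 1545, 1515 and 1635 in congenic pools, a log2 fold change of -0.013 (interval -0.18 to 0.15). The S pools of this probe set spanned the whole congenic range, and its interval overlaps that of the first. Whether the 2 probe sets differ in their fold change was not tested.

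Of the 11 members tested, 0 passed limma's threshold (adjusted p under 0.05), which no other tested probe set passed (0%). The plain test without moderation also called 0 of the 11. At an unadjusted p under 0.05 there was 1 of 11, the B2m probe set above, where 6.61% of all tested probe sets fell. It was also the only 1 of 11 without overlap between the groups, where 12.5% of all tested probe sets had none. The median log2 fold change of the 11 was 0.0056, beside -0.0036 over all tested probe sets, with 6 (of all tested probe sets, 48.7%) above and 5 below 0. Their median standard error was 0.074, where that of all tested probe sets was 0.11.

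**Figure D2:**
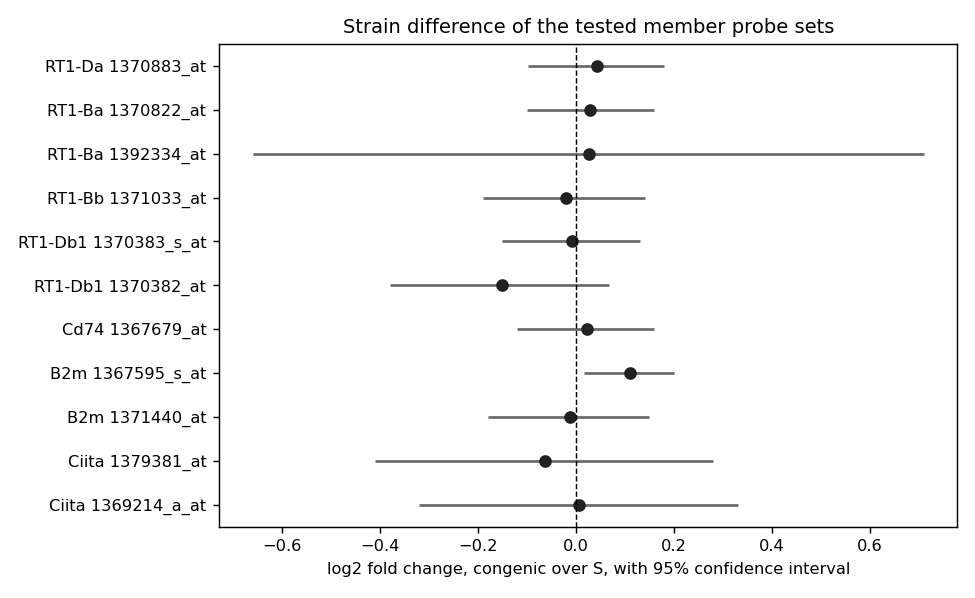
Log2 fold change, congenic over S (x axis), of the 11 tested member probe sets, with the 95% confidence interval of the limma fit as bars. All intervals include 0 except that of B2m 1367595_s_at (0.016 to 0.20), and the dim probe sets of RT1-Ba and Ciita have the widest intervals.

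The class II genes tended to rise and fall together from array to array. A class II profile was taken as the mean, over RT1-Da, RT1-Ba, RT1-Bb, RT1-Db1 and Cd74, of each gene's log2 signal minus its own mean of the 6 arrays. It was 0.036, -0.031 and -0.025 in the S pools and 0.096, -0.095 and 0.018 in the congenic pools. Congenic replicate 1 was the highest array for 4 of the 5 genes, and congenic replicate 2 was at 93.7% of the mean level. The extremes thus both lay among the congenic pools. Pearson's r between pairs of the 5 genes over the 6 arrays ranged from 0.44 (Cd74 and RT1-Da) to 0.88 (RT1-Bb and RT1-Ba), with a median of 0.77. The profile's r was 0.71 with the brighter Ciita probe set and 0.32 with B2m. These values describe 6 arrays that also share their scaling, and r between pairs of other genes was not taken for comparison.

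**Figure D3:**
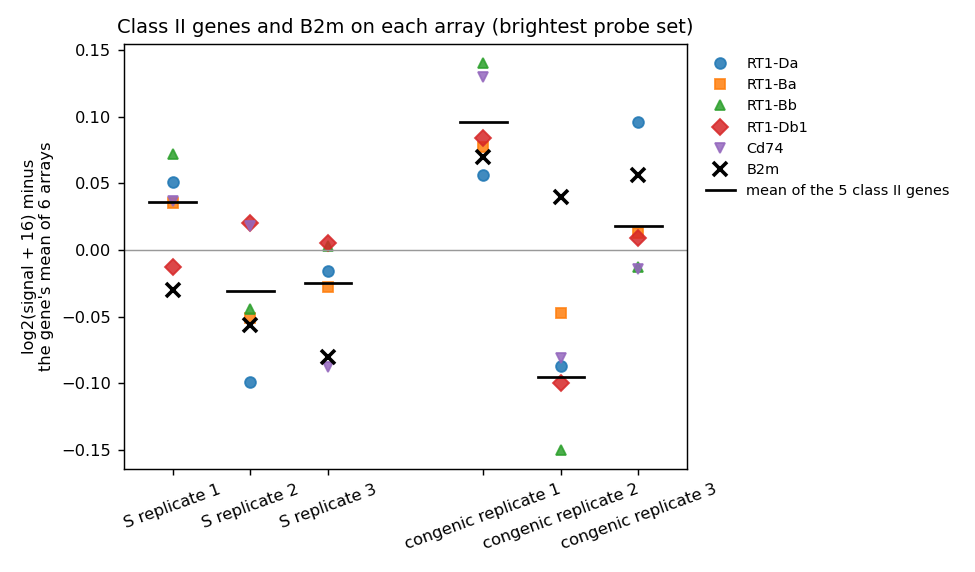
Log2(signal + 16) minus the gene's mean of the 6 arrays (y axis) for the brightest probe set of each class II gene, Cd74 and B2m on each array (x axis), with black bars at the mean of the 5 class II genes. The bars lie highest on congenic replicate 1 (0.096) and lowest on congenic replicate 2 (-0.095), while B2m (crosses) is above 0 on all 3 congenic arrays and below 0 on all 3 S arrays.

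In congenic replicate 1, where the class II profile was highest, liver transcripts were also present. The 6 liver markers summed to 9413 on that array and to 105 to 196 on the S arrays. Albumin (Alb), the main plasma protein made by liver, measured 6683 there, the urea cycle gene Cps1 711, Serpina1 872 and Ttr 555. Congenic replicate 3 carried adrenal transcripts, with 5 markers summing to 5505.5 the steroid enzyme genes Hsd3b1 at 2079.6 and Cyp11a1 at 1598, and Star at 1085, where the S arrays summed to 128 to 142. Their part in the class II signals was not tested. Against congenic replicate 2 alone, which carried neither, the brightest probe sets of all 5 class II genes had a negative log2 fold change. It was -0.066 for RT1-Da, -0.033 for RT1-Ba, -0.16 for RT1-Bb, -0.11 for RT1-Db1 and -0.070 for Cd74, and -0.25 for the second RT1-Db1 probe set. The B2m probe sets were at 0.095 (1367595_s_at) and -0.058, and the brighter Ciita probe set at -0.29. This comparison rests on 1 congenic array. That array was the lowest of the 6 on the class II profile (-0.095), so the negative class II signs largely restate that. In bulk tissue, fewer cells of a type and less RNA per cell cannot be told apart.

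The genes whose tested profile was most like that of the class II genes over the 6 arrays were taken by Pearson's r. They were Ssna1 (0.992), Nckap5l (0.990), Snx5 (0.983), Bltp2 (0.978), Ppm1h (0.976), Klhl20 (0.967), Trnau1ap (0.963), Fcsk (0.961), Gtf2e2 (0.961) and Gstt1 (0.959). Snx5, a sorting nexin, measured 1079.8, 1011 and 1013 in S and 1117, 985 and 1055 in congenic pools. Of 10641 genes, 71 (0.667%) had an r of at least 0.9 and 65 (0.611%) one of -0.9 or below. No leukocyte marker was among the 10.

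Markers of the cells that carry class II molecules were compared next. Of 8 markers of all leukocytes, 7 were tested, with 0 past the threshold, 0 at an unadjusted p under 0.05 and a median log2 fold change of -0.084, which was 0.053 without congenic replicate 3. Ptprc, the common leukocyte antigen CD45, measured 202, 202 and 189 in S and 216, 195 and 179 in congenic pools. Cd53, a leukocyte tetraspanin with the smallest p of the list, had a log2 fold change of -0.096, Itgb2, the beta-2 integrin, -0.088 and the lysosomal Laptm5 -0.085. Cd48, the brightest, had 0.027. The summed signal of this list was 1599 to 1833 in S and 1572 to 1764 in congenic pools, and its mean profile had an r of 0.71 with the class II profile. Its part in the class II signal was not tested.

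Macrophage markers had a median log2 fold change of 0.071 over 14 tested genes, of which 10 were above 0 and 0 passed the threshold. C1qb, a chain of complement C1q that resident macrophages make, measured 73.8, 81.2 and 98.1 in S and 144, 113 and 98.2 in congenic pools (log2 fold change 0.41, unadjusted p = 0.0137, limma adjusted p = 0.718). C1qc, another C1q chain, had 0.17, the perforin-like Mpeg1 0.19 and lysozyme (Lyz2), the brightest, 0.063. The 4 genes below 0 were Cd68 (-0.13), Fcgr1a (-0.13), Cd14 (-0.084) and Aif1 (-0.019). C1qb, C1qc, Mpeg1 and Lyz2 each had their highest value on congenic replicate 1, the array with liver transcripts. C1qb, C1qc and Fcer1g (0.079) were the 3 genes of the list whose groups did not overlap, where 12.7% of all tested genes had no overlap. The list summed to 5105 to 5401 in S and 5467 to 5763 in congenic pools, and Cd163 was too dim to test. Lyz2 alone made up 2288 to 2480 of this signal in S and 2376 to 2589.5 in congenic pools. Dendritic cell markers had 4 tested genes of 7 measured, with the lectin Clec10a at 0.35 (unadjusted p = 0.0340), Cd83, the brightest, at 0.17, Itgae at 0.051 and the integrin Itgax at -0.038. The dendritic list summed to 358 to 398 in S and 408 to 443 in congenic pools, and Flt3, Clec9a and Batf3 were too dim to test. The part of either list in the class II and B2m signals was not tested.

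Lymphocyte and granulocyte markers were mostly near background. Among the B cell markers Ms4a1 (CD20), Cd79b, Cr2 and Blk were too dim to test, and the 2 tested were Cd22 (log2 fold change -0.29) and Fcrla (0.043). Cd3e, Cd3d, Cd4, Cd8a, Cd2 and Cd5 of the T cell markers were too dim, while Lck, Cd3g and Cd247 had log2 fold changes of 0.043, 0.094 and -0.13. B cell markers summed to 109 to 143 in S and 92.5 to 136 in congenic pools, and T cell markers to 227 to 287 and 247 to 293. All 4 measured neutrophil markers were too dim, the brightest being S100a9 at 21.6 ± 5.70 and 23.2 ± 5.95 (SD, n = 3 each). Of the markers of lymphoid tissue, Cxcl13, Ccl19 and Ccl21 had log2 fold changes of -0.064, 0.044 and -0.19.

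Genes that load and trim class II peptides had 0 of 10 tested members past the threshold and a median log2 fold change of 0.049, beside -0.0070 over all 10648 tested genes. RT1-DMa and RT1-DMb form the exchange factor that removes the invariant chain remnant. RT1-DMa measured 99.8, 103 and 108 in S and 125, 109 and 116 in congenic pools, without overlap (log2 fold change 0.15, interval -0.055 to 0.35), and RT1-DMb had 0.016. The lysosomal protease Ctsd measured 1311, 1495.5 and 1663 in S and 2011, 1652 and 1689 in congenic pools. Its log2 fold change of 0.26 (unadjusted p = 0.0208, limma adjusted p = 0.736) was the only 1 of the 10 at an unadjusted p under 0.05, where 6.62% of all tested genes fell. Cathepsin S (Ctss), which cleaves the invariant chain, had 0.099, cathepsin L (Ctsl), the brightest of the list, 0.051 and the thiol reductase Ifi30 -0.031. Marchf1, a ubiquitin ligase that removes class II molecules from the surface, measured 41.9, 35.9 and 40.3 in S and 28.3, 28.6 and 33.2 in congenic pools. The groups of Marchf1 did not overlap, and its log2 fold change was -0.27 (interval -0.54 to 0.0087, limma adjusted p = 0.764). RT1-DMa and Marchf1 were the 2 of 10 without overlap, where 12.7% of all tested genes had none, and their fold changes differed in sign.

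The list of factors that assemble on the X and Y boxes, with the cofactors Crebbp, Ep300 and Hdac1, had 0 of 10 tested members past the threshold. Its median was 0.057. Rfxank, a subunit of the RFX complex, measured 27.1, 28.3 and 22.4 in S and 36.8, 32 and 40 in congenic pools, a log2 fold change of 0.32 (unadjusted p = 0.0369, limma adjusted p = 0.746). All 6 values lie close to the signal needed for testing. The DNA-binding subunit Rfx5 had -0.066. The acetyltransferase Crebbp measured 320, 323 and 340 in S and 387, 355 and 378 in congenic pools (0.18, unadjusted p = 0.0241). Rfxank and Crebbp were the 2 of 10 at an unadjusted p under 0.05, beside 6.62% of all tested genes. They were also the 2 of 10 without overlap between the groups, beside 12.7%. Of the NF-Y subunits, Nfya had 0.25 (unadjusted p = 0.0518) and Nfyc, the brightest of the list, -0.0038.

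Partners of B2m were described because its brighter probe set separated the groups. Of 23 tested genes of class I presentation, 19 had a positive log2 fold change, where 47.2% of all tested genes did, and the median was 0.074. None passed the threshold (0 of 23). An unadjusted p under 0.05 was found for 2 of 23, beside 6.62% of all tested genes, and no overlap for 3 of 23, beside 12.7%, so both counts lay near the background. The 3 without overlap were class I heavy chain genes. RT1-CE10 measured 94.2, 93.3 and 103 in S and 120, 119 and 119 in congenic pools, a log2 fold change of 0.26 (interval 0.067 to 0.46, unadjusted p = 0.0134, limma adjusted p = 0.718). RT1-A measured 29.4, 26.2 and 24.9 in S and 51.1, 30.9 and 43.9 in congenic pools (0.42, unadjusted p = 0.0201), at low signal. RT1-CE12 measured 455, 431 and 449 in S and 512, 496 and 468 in congenic pools (0.14, unadjusted p = 0.0537). Rat class I genes are near-identical copies, and the suffix _x_at of the RT1-CE10 and RT1-CE12 probe sets marks probes that can bind several of them, so the values may be shared between copies. The list holds several such RT1 copies, so its 19 positive genes may not be separate readings.

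RT1-S3, another class I gene, was read by 4 probe sets that disagreed in sign. They had log2 fold changes of 0.19 (unadjusted p = 0.0356, limma adjusted p = 0.746), 0.15, -0.0087 and -0.11, and the groups of the first and second did not overlap. The peptide transporter subunit Tap1 had 0.15 (interval -0.12 to 0.43), the immunoproteasome subunits Psmb8 and Psmb9 0.068 and 0.092, the class I transactivator Nlrc5 0.20 (interval -0.13 to 0.54) and the chaperone Canx, the brightest of the list, 0.0066. Of the B2m partners outside the MHC, Fcgrt, the neonatal Fc receptor, had 0.045, Cd1d1 0.054 and Azgp1 0.18. Azgp1 measured 150, 138 and 153 in S and 199, 160 and 148 in congenic pools. Its highest value was on congenic replicate 1, the array with liver transcripts. Hfe and Mr1 were too dim to test.

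The interferon gamma pathway, which induces both classes, did not move one way. Of 12 tested genes 7 had a positive log2 fold change, the median was 0.014 and 0 passed the threshold. Irf1, a transcription factor that acts on the promoters of Ciita and B2m, measured 174, 184 and 190 in S and 247, 207 and 233 in congenic pools. The groups of Irf1 did not overlap, and its log2 fold change was 0.30 (interval 0.10 to 0.49, unadjusted p = 0.00622, limma adjusted p = 0.693). The chemokine Cxcl10, an interferon-induced gene, measured 94.8, 106 and 91.8 in S and 78.6, 74.1 and 77.7 in congenic pools, a log2 fold change of -0.29 (interval -0.51 to -0.073, limma adjusted p = 0.718). Cxcl11 had -0.27 (unadjusted p = 0.0416). These were the 3 of 12 with an unadjusted p under 0.05, beside 6.62% of all tested genes, and their fold changes differed in sign. Irf1 and Cxcl10 were the 2 of 12 without overlap, beside 12.7% of all tested genes. The kinase Jak1, the brightest, had 0.0024, and Ifng itself lay at 0.437 to 6.28, too dim to test. Of the costimulatory genes that act beside class II, Cd40 had -0.32 (interval -0.63 to -0.0094, limma adjusted p = 0.746) and Cd86 -0.10, both at signals under 50, and Cd80 was too dim.

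**Figure D4:**
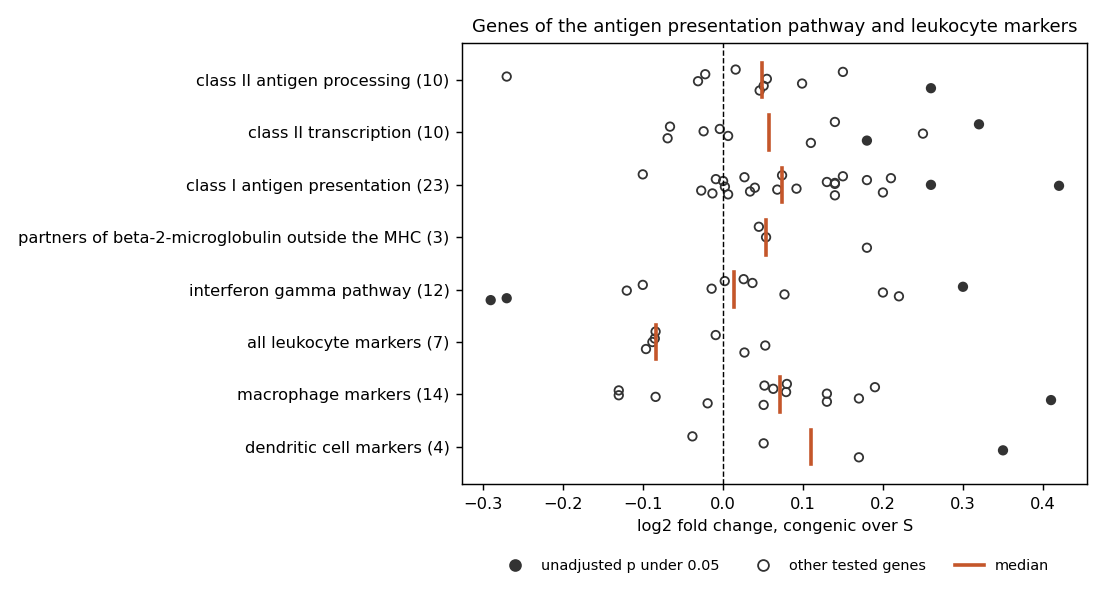
Log2 fold change, congenic over S (x axis), of the tested genes of each list (number in brackets), 1 probe set per gene, with filled circles for an unadjusted p under 0.05 and orange bars at the median. The class I list has a median of 0.074 with 19 of 23 genes above 0, several of them RT1 copies that may not be separate readings. The interferon gamma list lies on both sides of 0, and 0 genes shown passed the adjusted threshold.

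The MHC itself was then viewed as a region, because a background shared by both strains would carry 1 haplotype there. The region was taken as all genes on chromosome 20 of GRCr8 between the first and the last with an RT1 symbol, a choice made after the data were seen. Of its 435 genes 88 were tested, and 0 passed limma's adjusted threshold. At an unadjusted p under 0.05 there were 3 (3.41%, beside 6.62% of all tested genes), and 8 (9.09%, beside 12.7%) had no overlap between the groups. The 3 were the Hsp70 gene Hspa1a (log2 fold change 0.67, limma adjusted p = 0.178), the membrane scaffold gene Flot1 (0.43, limma adjusted p = 0.693) and RT1-CE10. RT1-A, described above, was not matched to the gene table used and is not among the 88. The median was 0.028, and the largest value, 1.27 for Cyp21a1, came from the array with adrenal transcripts. Sequence differences between haplotypes were not analysed here.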

How the data were processed

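Each deposited value is an intensity, the linear MAS5 signal of a probe set, as the submitters' processing notes name it. Its version and scaling target are not given here. Median signals were 42.9 to 46.0 per array, and Spearman correlations between arrays 0.969 to 0.977. Gene symbols are those of the platform table, brought to RefSeq GRCr8 by gene ID (20758 of 20826 probe sets with 1 symbol matched).

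With log2(signal + 16), 57 control probe sets and 12417 probe sets below the 40th percentile of the mean log2 value were left out. The other 18625 entered limma (3.58.1, under R 4.3.3; eBayes with intensity trend, 2-sided, Benjamini-Hochberg at 0.05), after the fit was tested on simulated data. With 3 arrays a group, exact permutation p-values stop at 0.1, so none was used. Lists used the brightest probe set per gene. Named genes were all member probe sets, the 3 smallest p among the tested genes of each list, the most abundant gene of marker lists, and the 10 most alike profiles; others were named for their role after their values were seen. Members and lists were chosen with earlier results of these data known. P-values measure the spread between pools of different rats. Alternatives were other pseudocounts (1 and 64), filters, scalings, eBayes settings, a plain test, array weights, a replicate block and leaving out arrays.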

Additional observations from a re-analysis of the deposited data

How the results depend on the processing

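The number of member probe sets past the threshold stayed at 0 under each of the 18 alternatives, and the smallest adjusted p of a tested member under any of them was 0.515. Over all probe sets the count was 0, except that leaving out 1 array gave 0 to 3 (3 without S replicate 3, 1 without congenic replicate 2). Same-numbered pools had correlations of 0.0426, 0.0224 and 0.0165 in their deviations from the group means, and S replicate 3 correlated more with congenic replicate 2 (0.0363), so the numbers were not taken as pairs. With the replicate number as a replicate block, 0 probe sets passed, and the median of the members was 0.0056 as before. The median log2 fold change of the members was -0.025 to 0.052 with 1 array left out and -0.066 against congenic replicate 2 alone. Of 195 member values under the alternatives 176 kept their sign and 19 did not, and the cause was not tested. RT1-Db1 1370383_s_at was at 0.0025 with quantile normalization, and Cd74 at -0.0032 with array weights. Against congenic replicate 2 alone, the lowest array of the class II profile, RT1-Da, RT1-Ba 1370822_at and Cd74 were at -0.066, -0.033 and -0.070. In that comparison RT1-Bb and the RT1-Db1 probe sets, negative before, were at -0.16, -0.11 and -0.25. With 1 array left out, RT1-Ba 1370822_at ranged from -0.0024 to 0.059, RT1-Ba 1392334_at from -0.31 to 0.29, RT1-Bb from -0.094 to 0.051 and RT1-Db1 1370383_s_at from -0.052 to 0.042. Cd74 ranged from -0.037 to 0.067, B2m 1371440_at from -0.090 to 0.058, Ciita 1379381_at from -0.16 to 0.093 and Ciita 1369214_a_at from -0.093 to 0.069. B2m 1367595_s_at and RT1-Db1 1370382_at kept their sign in all 18, but the unadjusted p of the former was 0.05 or more in 8, among them quantile normalization (0.0773), eBayes without trend (0.142) and the replicate block (0.0594). With 3 pools per group, differences of the dim Ciita and RT1-Ba probe sets are bounded only loosely, as their intervals show. Detection calls were not used here.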
